A study of Mus musculus with 9 samples.

Results

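The haematopoietic growth factor receptors followed here are 10 genes, chosen by symbol from 24060 named genes in the count table: the receptor tyrosine kinases Kit, Flt3 and Csf1r, the G-CSF receptor Csf3r, the GM-CSF and IL-3 receptor chains Csf2ra, Csf2rb, Csf2rb2 and Il3ra, and the alpha chains Il6ra and Il7r. RNA was sequenced from LSK cells (lineage low, Sca1 positive, Kit positive), the marrow fraction that holds stem cells and multipotent progenitors, so Kit protein was itself part of the sort. There were 3 control libraries, 2 NHD13 libraries and 4 libraries labelled NHD13/MSI2. Every donor was on a C57BL/6 background and carried CD45.2, the recipients were lethally irradiated congenic CD45.1 mice given doxycycline for 3 months, and the age label was 4 months throughout. NHD13 donors carried a NUP98-HOXD13 fusion transgene driven by Vav, which is active across blood cells, and NHD13/MSI2 donors carried in addition a doxycycline-inducible MSI2 cassette at the Col1a1 locus with the rtTA activator at ROSA26. CD45.1 helper marrow was transplanted along with the donor cells, and only CD45.2 cells were collected. The labels number the libraries as replicates without saying that each came from a separate mouse, so the p-values measure the spread between these libraries, which may in part be technical.

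Blood progenitors read their growth factors through 2 kinds of surface receptor. Kit, Flt3 and Csf1r are receptor tyrosine kinases that pair up and phosphorylate themselves when stem cell factor, FLT3 ligand or CSF1 (and IL-34) binds. The remaining receptors have no kinase of their own and signal through JAK kinases and STAT factors. For several of them an alpha chain, such as Csf2ra, Il3ra or Il6ra, gives ligand specificity and a shared chain does the signalling. That chain is the common beta chain Csf2rb for GM-CSF, IL-3 and IL-5, and Il6st for IL-6. Il7r signals for IL-7 together with the shared chain Il2rg. Mice have a second beta chain, Csf2rb2, that serves IL-3 alone. In marrow, Kit and Flt3 are typical of stem cells and early multipotent progenitors, Csf1r of the monocyte and macrophage line, Csf3r of the neutrophil line, and Il7r of lymphoid progenitors.

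Promoter sequence was available for 8 of the 10 genes, from RefSeq on GRCm38.p6, and was trimmed to the 250 bases before the start site; Csf1r and Csf2rb had no entry. Csf3r, Il6ra and Csf2rb2 are shown because every library labelled NHD13/MSI2 lay above every other library, and Flt3 because it was called lower there than in control. Capitals mark GAGGAA, the core bound by the myeloid factor PU.1, or its reverse complement TTCCTC, searched on both strands.
Csf3r, chr4:126024409-126024658, plus strand: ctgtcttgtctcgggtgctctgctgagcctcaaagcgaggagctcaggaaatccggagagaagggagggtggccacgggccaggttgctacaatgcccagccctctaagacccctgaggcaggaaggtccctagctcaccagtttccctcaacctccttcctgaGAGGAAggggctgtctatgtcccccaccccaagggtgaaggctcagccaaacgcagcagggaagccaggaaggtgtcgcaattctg
Il6ra, chr3:89913197-89913446, minus strand: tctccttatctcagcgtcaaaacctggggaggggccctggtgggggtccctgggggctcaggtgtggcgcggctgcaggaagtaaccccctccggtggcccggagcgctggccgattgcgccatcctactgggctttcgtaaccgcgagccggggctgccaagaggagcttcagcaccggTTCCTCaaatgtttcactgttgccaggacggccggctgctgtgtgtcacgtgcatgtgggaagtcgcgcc
Csf2rb2, chr15:78305722-78305971, minus strand: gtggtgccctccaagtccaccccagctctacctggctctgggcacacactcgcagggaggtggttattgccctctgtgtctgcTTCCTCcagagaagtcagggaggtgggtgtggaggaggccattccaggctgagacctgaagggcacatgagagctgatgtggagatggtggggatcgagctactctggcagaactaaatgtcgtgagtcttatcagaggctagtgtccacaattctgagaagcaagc
Flt3, chr5:147400490-147400739, minus strand: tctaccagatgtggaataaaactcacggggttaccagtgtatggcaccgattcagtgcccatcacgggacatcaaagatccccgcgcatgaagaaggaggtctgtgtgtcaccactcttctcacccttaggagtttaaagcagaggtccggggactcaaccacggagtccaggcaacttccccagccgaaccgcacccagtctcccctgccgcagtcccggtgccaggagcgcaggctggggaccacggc
The core lay 86 bases before the start of Csf3r, 70 bases before that of Il6ra and 167 bases before that of Csf2rb2, and it was not in these letters of Flt3. Among genes not printed, Csf2ra and Il3ra also had their highest group mean in the libraries labelled NHD13/MSI2, and Kit its lowest. Kit and Csf2ra hold the core and Il3ra does not, so the printed letters do not pair the core with a rise. Among the 8 genes 5 held it, the other two being Kit and Csf2ra, beside 23.3% of 32851 promoter windows of the same length. TTGCNNAA, a C/EBP motif in which N is any base, lay before Il3ra and Il7r (2 of 9 windows, beside 9.56% of all windows), and TGTGGT, a RUNX motif, was in 0 of the 9 windows (14.0% of all windows). No match overlapped another motif, and a match describes these letters only.

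Libraries held 19242153 to 23013493 counts, and each of the 10 receptors had at least 41 counts in every library and passed the filter on low counts. Levels are given as CPM, counts scaled to 1000000 per library, after TMM scaling, which corrects for differences in library composition. Msi2, the mouse gene of the same name as the induced cassette, did not exceed the other groups under the NHD13/MSI2 label: it was at 223, 316 and 266 CPM in the controls, 139 and 111 CPM in NHD13, and 88.0, 77.1, 82.8 and 241 CPM in the NHD13/MSI2 libraries (log2 change from NHD13 −0.03, edgeR adjusted p = 0.983). The cassette's own sequence was not analysed here, so every direction drawn from these 4 libraries is given for libraries so labelled. Hoxd13, the mouse gene named in the fusion transgene, was at 0 in the controls, 0.761 ± 0.0289 CPM in NHD13 (SD, n = 2) and 0.911 ± 0.217 CPM in NHD13/MSI2 (SD, n = 4). NHD13/MSI2 replicate 4 stood apart, with a correlation of 0.943 to 0.949 with the other NHD13/MSI2 libraries against 0.970 to 0.973 among those, so results are given without it as well. Its TMM factor was 0.785, against 0.969 to 0.973 in the others of its group. The 2 NHD13 libraries correlated with each other at 0.937, lower still, and every comparison with NHD13 rests on that pair. Xist, which silences the second X chromosome of females, reached 888 CPM in control replicate 1 and 866 CPM in replicate 3, with 2.33 CPM or less in all other libraries, so sex was mixed among the controls only, and its part in the results was not tested. Library names of control replicates 2 and 3 carry stem cell and multipotent progenitor terms, and that of control replicate 1 the word bulk. Of the gate genes, Kit was at 908 CPM or more in every library and Ly6a, which encodes Sca1, at 48.3 CPM or more, and 8 genes of the lineage antigens summed to at most 12.1 CPM. That sum leaves out Ptprc, which encodes CD45 and its B220 form and had at least 9750 counts in every library. It also lacks Ly6g, which had no row among the counts, so it does not cover these antigens.

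Csf1r and Csf3r were higher in the libraries labelled NHD13/MSI2 than in NHD13, by 3.28-fold and 2.69-fold, and 0 of the 10 receptors were called lower by edgeR or by DESeq2, with Flt3 and Il7r lower at an unadjusted p under 0.05 (2 genes). That is 2 of 10 receptors higher at an adjusted p under 0.01, where 0.584% of the 13355 genes tested were called higher and 2.58% lower. Against control, 4 of 10 were higher in the same libraries (Csf1r, Csf2rb2, Il6ra and Csf2rb) and 1 was lower (Flt3), beside 4.49% and 6.55% of all genes. Between NHD13 and control edgeR called Csf1r alone, higher in NHD13 by 9.64-fold, beside 0.824% of genes called higher and 0.210% called lower. In that comparison 7 of the 10 had an unadjusted p under 0.05 in edgeR (5 higher and 2 lower), and DESeq2 called Csf3r as well, lower in NHD13. Such a p was common over the 13355 genes. An unadjusted edgeR p of 0.0495 ranked 2892 for NHD13/MSI2 over NHD13. For NHD13/MSI2 over control 0.0373 ranked 4009, and for NHD13 over control 0.0477 ranked 1761. DESeq2 counts stand here without DESeq2's share over all genes. The median log2 change over the 10 receptors was 0.72 for NHD13/MSI2 over NHD13, 0.85 for NHD13/MSI2 over control and 0.73 for NHD13 over control, against −0.03, −0.01 and 0.02 over all genes tested. Taken by overlap of the CPM values alone, with no test, 4 receptors lay wholly higher and 0 wholly lower in NHD13/MSI2 than in NHD13, beside 13% (1734) and 16.9% (2256) of all genes; 5 lay higher and 2 lower in NHD13/MSI2 than in control, beside 15.3% and 20.4%; and 4 lay higher and 2 lower in NHD13 than in control, beside 18.9% and 18.5%. These 3 comparisons share libraries and are not independent of each other. In bulk RNA, fewer cells that carry a transcript cannot be told apart from less of it per cell.

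**Figure D1:**
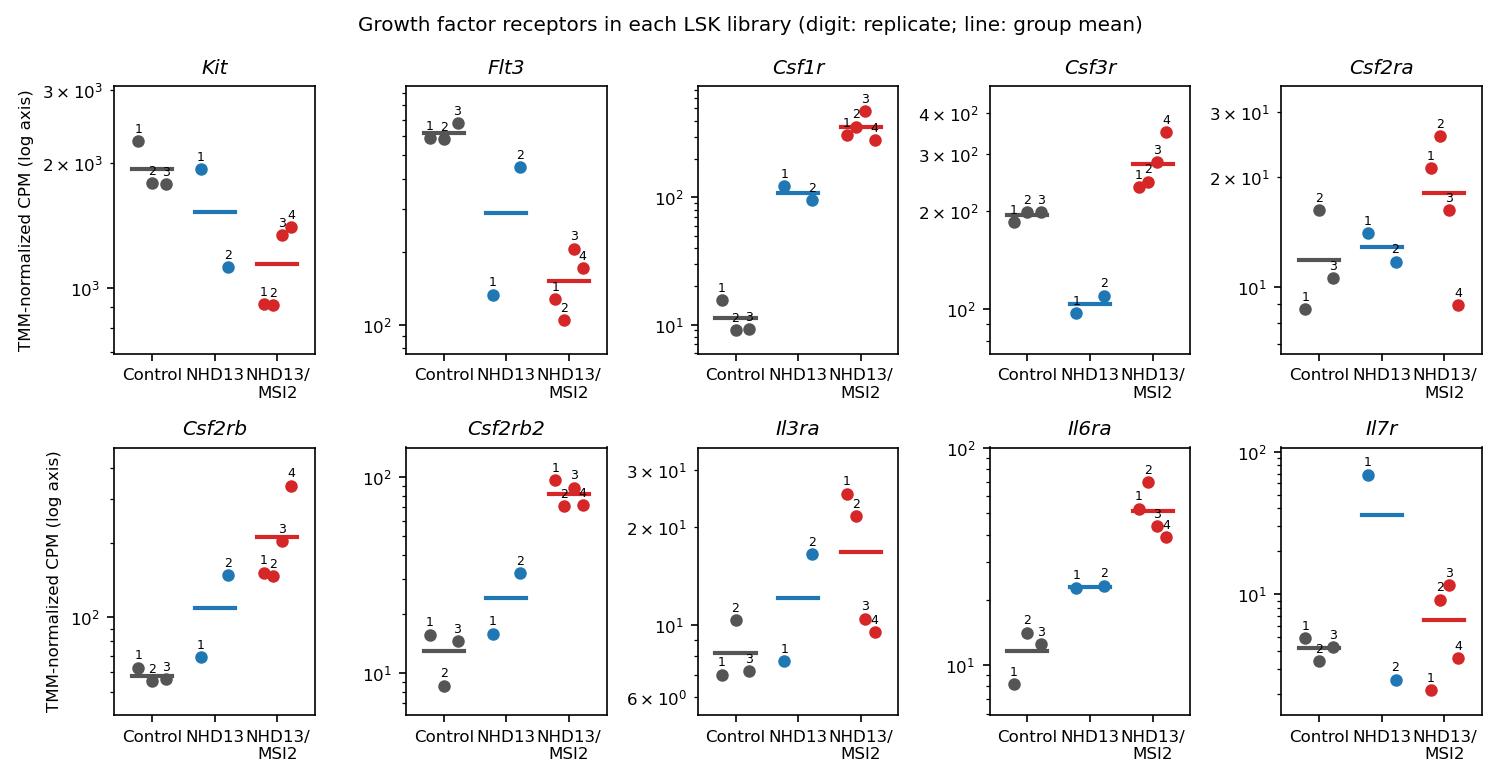
Level of each of the 10 receptors (CPM, log axis) in each of the 9 libraries, with a dot per library, its replicate number as a digit and the group mean as a line. Csf1r forms 3 separate steps, from at most 15.5 CPM in the controls to at least 281 CPM in the libraries labelled NHD13/MSI2, and Csf3r dips in NHD13 to 97.2 and 110 CPM before its highest values in NHD13/MSI2.

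Csf1r, the receptor through which CSF1 supports monocytes and macrophages, rose at each step. It was at 15.5, 9.02 and 9.20 CPM in the controls, 122 and 94.9 CPM in NHD13, and 309, 359, 473 and 281 CPM in the libraries labelled NHD13/MSI2. The 3 groups did not overlap at any step. NHD13 was above control by a log2 change of 3.27 (SE 0.30, edgeR quasi-likelihood test with Benjamini-Hochberg adjustment, adjusted p = 0.000711), and this held under every alternative run. From NHD13 to NHD13/MSI2 the log2 change was 1.71 (SE 0.30, edgeR adjusted p = 0.00927), and from control to NHD13/MSI2 it was 4.98 (SE 0.31, edgeR adjusted p = 2.07e-05). The step from NHD13 sat close to the threshold: leaving out any 1 of the 3 controls, the 2 NHD13 libraries or NHD13/MSI2 replicates 1 to 3 gave an adjusted p between 0.0103 and 0.0598, whereas it was 0.00516 without replicate 4 and 1.14e-06 with DESeq2. Of the 50-base stretches in Csf1r transcripts, 14.3% also occur in transcripts of its neighbour Hmgxb3, which was at 25.6 to 58.4 CPM across the libraries.

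The summed level of monocyte and macrophage markers moved in the same order as Csf1r, though not every marker did. Over the 14 genes of that list in the table, the sum was 325 to 443 CPM in the controls, 3417 to 3863 CPM in NHD13 and 7439 to 9621 CPM in the libraries labelled NHD13/MSI2. F13a1, the most abundant, made up most of the sum in NHD13 and NHD13/MSI2. Against control, 3 of the 14 were called higher in NHD13 and 6 in NHD13/MSI2, beside 0.824% and 4.49% of all genes. From NHD13 to NHD13/MSI2, 10 of the 14 had a positive log2 change. Of these, 0 were called by edgeR (4 were higher at an unadjusted p under 0.05, and 2 were called by DESeq2). Cd14, the lipopolysaccharide co-receptor of mature monocytes, was at 0.92 CPM or less in every library. Granulocyte-monocyte progenitor markers, led by Mpo, summed to 3773 to 4585 CPM, 4843 to 5628 CPM and 10586 to 17853 CPM in the same order of groups, with 1 of 10 higher and 1 lower in NHD13/MSI2 than in control. Mpo made up most of that sum in NHD13 and NHD13/MSI2. Of the 10, 5 had a positive log2 change in NHD13 over control (median 0.15) and 8 in NHD13/MSI2 over NHD13 (median 0.52). The part of these marker lists in the Csf1r result was not tested.

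Csf3r, the G-CSF receptor of the neutrophil line, moved in opposite directions at the 2 steps. The controls were at 185, 198 and 198 CPM, NHD13 at 97.2 and 110 CPM, and the libraries labelled NHD13/MSI2 at 236, 246, 282 and 349 CPM. NHD13 lay below every control, and NHD13/MSI2 above every library of both other groups. The difference between NHD13/MSI2 and NHD13 was a log2 change of 1.43 (SE 0.19, edgeR adjusted p = 0.00336). Leaving out control replicate 2 gave an adjusted p of 0.0102, NHD13 replicate 1 gave 0.0366 and NHD13 replicate 2 gave 0.0130, while it was 0.00100 without NHD13/MSI2 replicate 4. NHD13 against control had a log2 change of −0.90 (SE 0.20) that missed the threshold (edgeR adjusted p = 0.0442) but passed it with DESeq2 (0.00114) and without NHD13/MSI2 replicate 4 (0.00440). NHD13/MSI2 against control, at 0.52 (SE 0.16), did not pass (edgeR adjusted p = 0.0482). Neutrophil markers, led by Ngp, summed to 946 to 2537 CPM in control, 158 to 572 CPM in NHD13 and 284 to 721 CPM in NHD13/MSI2. Of the 11, 2 had a positive log2 change in NHD13/MSI2 over control (median −1.68) and 9 over NHD13 (median 0.32). From control 1 of them was called higher, beside 4.49% of all genes. That was Cxcr2, a chemokine receptor of neutrophils, at 3.03, 4.84 and 3.80 CPM in the controls, 16.6 and 5.24 CPM in NHD13, and 49.3, 62.5, 54.9 and 34.5 CPM in NHD13/MSI2. The part of the neutrophil markers in the Csf3r result was not tested.

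Flt3, the receptor that marks progenitors leaving the stem cell pool, was lower in the libraries labelled NHD13/MSI2 than in control, by 4.04-fold. It was at 586, 581 and 674 CPM in the controls, 133 and 445 CPM in NHD13, and 128, 104, 205 and 171 CPM in NHD13/MSI2. No NHD13 or NHD13/MSI2 library reached the lowest control, but NHD13 replicate 1 lay within the NHD13/MSI2 range and NHD13 replicate 2 far above it. The log2 change from control to NHD13/MSI2 was −2.01 (SE 0.37, edgeR adjusted p = 0.00497). Leaving out any 1 control, or NHD13/MSI2 replicate 1 or 2, raised the adjusted p to between 0.0170 and 0.0211, and it was 0.00730 without replicate 4. From control to NHD13 the log2 change was −1.09 (SE 0.46, 95% interval −2.12 to −0.05, edgeR adjusted p = 0.338), and it was −0.46 without NHD13 replicate 1 and −2.22 without NHD13 replicate 2 (edgeR adjusted p = 0.0367). From NHD13 to NHD13/MSI2 it was −0.93 (SE 0.41, 95% interval −1.85 to −0.00, edgeR adjusted p = 0.229), and its direction rested on NHD13 replicate 2, without which it was 0.24; without NHD13 replicate 1 it was −1.52.

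Kit, the stem cell factor receptor, was at 2254, 1785 and 1775 CPM in the controls, 1932 and 1121 CPM in NHD13, and 914, 908, 1341 and 1402 CPM in the libraries labelled NHD13/MSI2. All 4 of the latter lay below the lowest control, and the NHD13 libraries straddled that level. Its log2 change from control to NHD13/MSI2 was −0.76 (SE 0.25, 95% interval −1.32 to −0.21, edgeR adjusted p = 0.0561), and from NHD13 it was −0.42 (SE 0.28, 95% interval −1.04 to 0.20, edgeR adjusted p = 0.436). Cells of every group had been gated on Kit protein.

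Both beta chains were higher in the libraries labelled NHD13/MSI2 than in control, Csf2rb2 by 6.33-fold and Csf2rb by 3.62-fold. Csf2rb2, which serves IL-3 alone, was at 15.7, 8.59 and 14.6 CPM in the controls, 15.9 and 32.3 CPM in NHD13, and 96.6, 71.3, 88.3 and 71.9 CPM in NHD13/MSI2. Every NHD13/MSI2 library was above every other library. The log2 change was 2.66 from control (SE 0.31, edgeR adjusted p = 0.000470), which held under every alternative run. From NHD13 the log2 change of Csf2rb2 was 1.77 (SE 0.34, edgeR adjusted p = 0.0140), on the other side of the threshold, and it passed with DESeq2 (1.42e-05), with no filter on low counts and without NHD13 replicate 2 (0.00923 in each), where it was 2.41.

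Csf2rb, the signalling chain common to GM-CSF, IL-3 and IL-5, was at 62.6, 55.2 and 56.3 CPM in the controls, 68.9 and 148 CPM in NHD13, and 151, 147, 203 and 340 CPM in the libraries labelled NHD13/MSI2. NHD13 replicate 2 lay within the NHD13/MSI2 range, while all 3 controls lay below both other groups. The log2 change from control to NHD13/MSI2 was 1.86 (SE 0.36, edgeR adjusted p = 0.00568). It was lost without any 1 control or without NHD13/MSI2 replicate 3 (adjusted p 0.0134 to 0.0296) and held without replicate 4 (0.00343). From NHD13 the log2 change was 0.95 (SE 0.40, edgeR adjusted p = 0.197), and it was 0.54 without NHD13 replicate 1 and 1.65 without NHD13 replicate 2. The 2 beta chains are close copies that share 12.3% of the 50-base stretches of Csf2rb and 18.4% of those of Csf2rb2, so reads could be split between them. Their ratio per kilobase, Csf2rb over Csf2rb2, was 2.52 to 4.19 in the controls, 2.83 and 2.99 in NHD13, and 1.02, 1.34, 1.50 and 3.08 in NHD13/MSI2, where replicate 4 alone lay within the control range.

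Alpha chains were low throughout, and among them Il6ra changed. Il6ra, the ligand-binding chain for IL-6, was at 8.22, 14.1 and 12.6 CPM in the controls, 22.8 and 23.3 CPM in NHD13, and 52.7, 69.6, 43.7 and 38.9 CPM in the libraries labelled NHD13/MSI2. The 3 groups did not overlap and rose in that order. It was 4.40-fold higher in NHD13/MSI2 than in control (log2 change 2.14, SE 0.26, edgeR adjusted p = 0.000646), a call that held under every alternative run. Its log2 change from NHD13 was 1.15 (SE 0.29, edgeR adjusted p = 0.0400), which passed with DESeq2 (0.00200), and NHD13 over control was 0.98 (SE 0.29, edgeR adjusted p = 0.133). Its signalling partner Il6st had an adjusted p of 0.795 from NHD13 and 0.560 from control (edgeR).

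Csf2ra, the GM-CSF alpha chain, was at 8.71, 16.2 and 10.6 CPM in the controls, 14.1 and 11.8 CPM in NHD13, and 21.1, 25.8, 16.2 and 8.96 CPM in the libraries labelled NHD13/MSI2. Il3ra, the IL-3 alpha chain, was at 7.03, 10.3 and 7.20 CPM, then 7.73 and 16.5 CPM, then 25.4, 21.6, 10.5 and 9.48 CPM in the same order. For both, NHD13/MSI2 replicates 1 and 2 were the highest libraries of all and replicate 4 the lowest of its group, within the range of the controls, and the groups overlapped. Their changes from control did not pass the threshold (log2 changes of 0.61 and 1.03, edgeR adjusted p = 0.284 and 0.124), nor did those from NHD13 (0.48 and 0.47, 0.564 and 0.639). The 95% interval of the change from control was −0.21 to 1.42 for Csf2ra and 0.07 to 1.99 for Il3ra. Il5ra, the IL-5 alpha chain, was at 0.854 CPM or less in every library. In replicate 4, Csf2rb was 15.0 times Csf2ra per kilobase, against 2.24 to 4.94 times in the other NHD13/MSI2 libraries.

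Il7r, the alpha chain for IL-7 and TSLP, was set by a single library. NHD13 replicate 1 was at 69.0 CPM, NHD13 replicate 2 at 2.52 CPM, the controls at 4.91, 3.42 and 4.24 CPM, and the libraries labelled NHD13/MSI2 at 2.12, 9.18, 11.5 and 3.57 CPM. The fitted log2 change of NHD13 over control was 3.09 (SE 1.06, edgeR adjusted p = 0.209) and became −0.73 without NHD13 replicate 1. From NHD13 to NHD13/MSI2 it was −2.43 (SE 0.95, edgeR adjusted p = 0.169) and became 1.42 without it. The same library had the highest summed megakaryocyte markers (765 CPM, other libraries at most 288 CPM) and dendritic cell markers (153 CPM, others at most 88.2 CPM), of which Ccr9, a chemokine receptor of thymus-seeding progenitors, made up 129 CPM (others at most 9.82 CPM), and the lower Flt3 of its pair, and their part in its Il7r level was not tested. Tcf7, a transcription factor of T-lineage progenitors in the lymphoid-primed list, reached 139 CPM in that library, with 32.8 CPM or less in all others, and the T-cell marker Cd2 was at 3.36 CPM there and at 0.368 CPM or less elsewhere. The lymphoid-primed list as a whole did not stand out in that library. It summed to 1016 CPM there, 963 CPM in NHD13 replicate 2, 675 to 817 CPM in the controls and 1309 to 1883 CPM in NHD13/MSI2. Lsp1 was its most abundant gene, and the members did not move together. From NHD13 to NHD13/MSI2, 4 of the 9 had a positive log2 change (median −1.93), and from control 5 had (median 1.37). Dntt had 6513 and 3514 counts in NHD13, but 327, 1064, 2857 and 752 in NHD13/MSI2. Summed T and NK cell markers were alike in both NHD13 libraries, at 348 and 356 CPM, against 94.0 to 101 CPM in the controls and 178 to 273 CPM in NHD13/MSI2, and B cell markers, led by Cd79b, came to 152 and 127 CPM, against 49.8 to 69.5 CPM and 284 to 475 CPM. Il2rg, the chain that Il7r signals with, had an adjusted p of 0.789 from NHD13 and 0.799 from control in NHD13/MSI2 (edgeR), and Crlf2, its partner for TSLP, of 0.908 and 0.761.

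**Figure D2:**
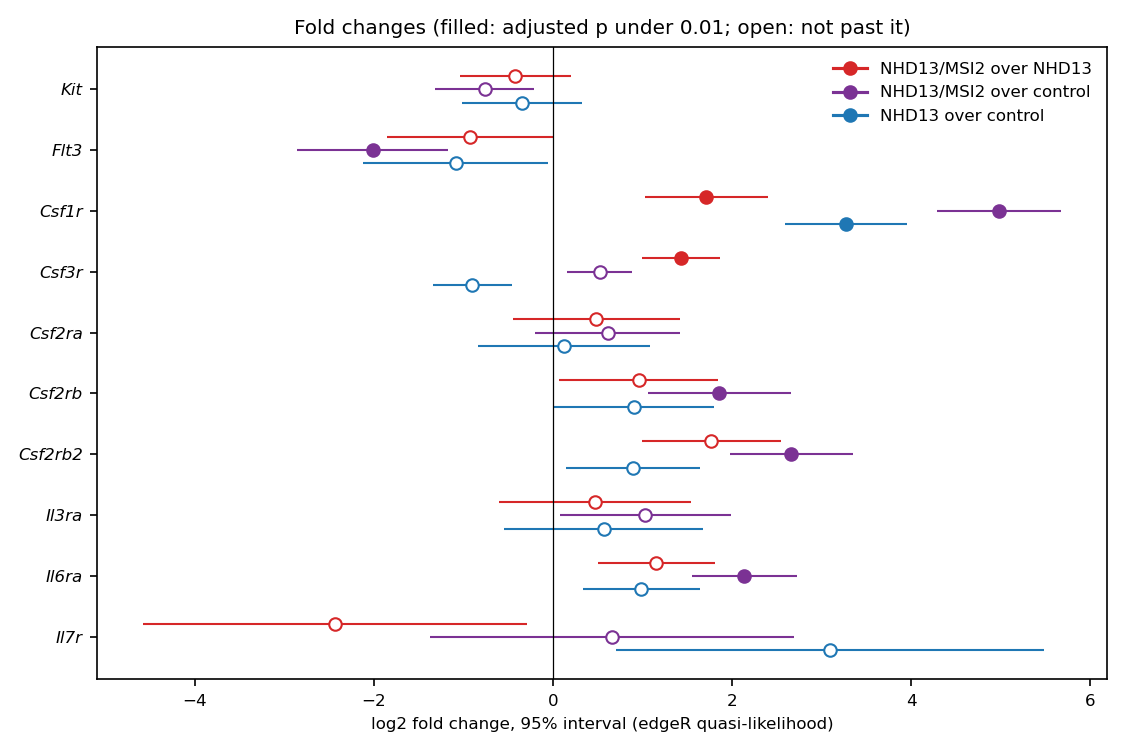
Log2 fold change of each receptor with its 95% interval in the 3 comparisons, with filled points for an adjusted p under 0.01 in edgeR's quasi-likelihood test. Csf1r lies to the right in all 3, from 1.71 to 4.98, whereas the interval of Il7r is the widest in each comparison.

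Between receptors, levels were compared as CPM per kilobase of exon, since longer transcripts collect more reads. Kit ranked first in every group, at 217, 171 and 128 CPM per kilobase in control, NHD13 and the libraries labelled NHD13/MSI2. Flt3 was next in control (99.4) and NHD13 (46.8) and came in rank 5 in NHD13/MSI2 (24.6), below Csf3r (77.1), Csf1r (61.6) and Csf2rb (28.9), though its order with Csf2rb rested on replicate 4: Csf2rb was at 20.8, 20.1, 27.9 and 46.8 there and Flt3 at 20.7, 16.9, 33.3 and 27.6, which overlap. Csf1r went from rank 8 of 10 in control (1.95) to rank 4 in NHD13 (18.8) and rank 3 in NHD13/MSI2. In NHD13/MSI2 Csf3r and Csf1r did not differ beyond their spread (SD 14.2 and 14.7, n = 4), and in NHD13 Flt3 ranged from 21.5 to 72.0 and so spanned Csf3r (26.9 and 30.5).

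Summed over the 10 receptors, the per-kilobase level was 372 to 421 in the controls, 285 and 324 in NHD13 and 306 to 407 in the libraries labelled NHD13/MSI2, so the NHD13/MSI2 totals overlapped those of both other groups, while both NHD13 totals lay below the lowest control. Kit and Flt3 together held 79.2 to 82.6% of that sum in the controls, 69.5 and 73.5% in NHD13, and 38.2 to 45.8% in NHD13/MSI2. Csf1r held 0.415 to 0.637%, then 5.77 and 6.51%, then 12.0 to 20.1%, and Csf3r 12.2 to 14.8%, then 8.31 and 10.7%, then 19.2 to 23.9%. Kit exceeded Csf1r 94.3 to 128 times in the controls, 7.65 and 10.3 times in NHD13 and 1.64 to 3.24 times in NHD13/MSI2. These shares are a description of the levels already tested gene by gene and carry no test of their own.

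**Figure D3:**
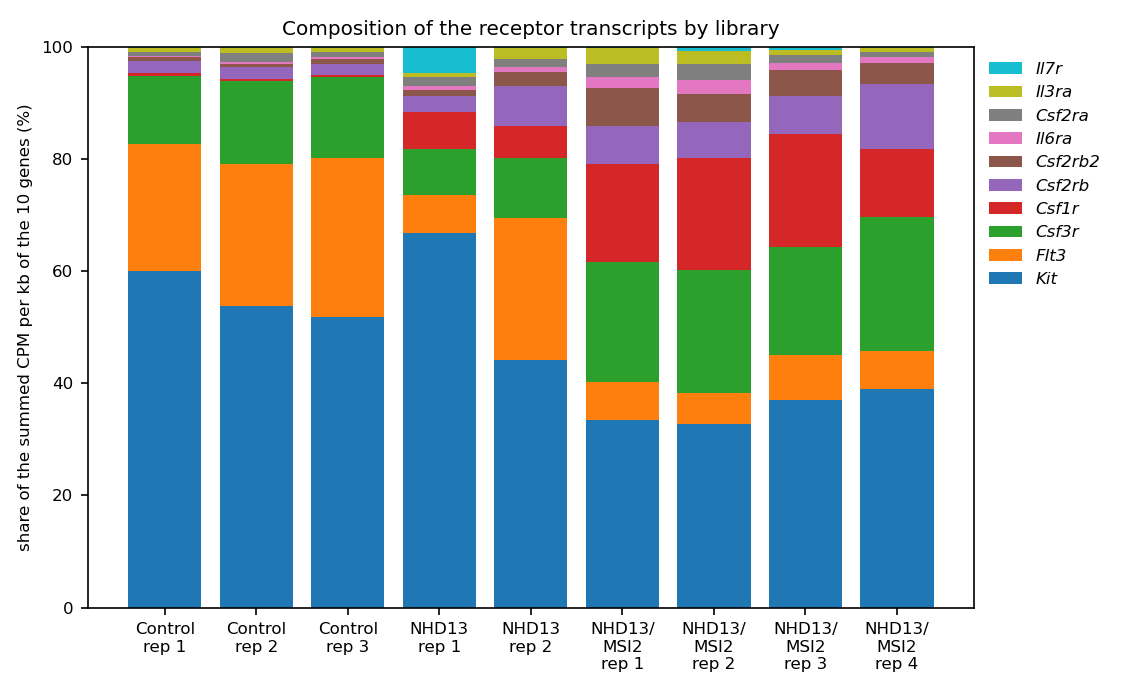
Share of the summed CPM per kilobase of the 10 receptors held by each receptor in each library (stacked bars, percent from 0 to 100). Kit and Flt3 fill at least 79.2% of every control bar and at most 45.8% of every bar of the libraries labelled NHD13/MSI2, where Csf1r and Csf3r take more.

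The wider pathway was read from 7 lists of 135 genes in all, of which 119 passed the filter: ligands, other cytokine receptors, other receptor tyrosine kinases, JAK and Src-family kinases with their adaptors, STATs, negative regulators such as the SOCS proteins, and genes known as STAT targets. In the libraries labelled NHD13/MSI2, 2 of these were higher and 6 lower than in NHD13, beside 0.584% and 2.58% of all genes tested. Against control, 10 of the 119 were higher and 8 lower in the same libraries, beside 4.49% and 6.55%, so the share called lower was near that of all genes. In NHD13, 2 were higher and 1 lower than in control, beside 0.824% and 0.210%. The same all-gene shares stand beside the counts for each list below. Of the 8 called from NHD13, Il7 held with each library left out in turn, Il4ra was lost without NHD13 replicate 1 (edgeR adjusted p = 0.0129), and Ifngr2, Il18r1, Il11ra1, Tek, Tie1 and Pdgfrb were each lost without at least 1 control and 1 NHD13 library, at adjusted p-values of up to 0.102. Without NHD13/MSI2 replicate 4 the number called from NHD13 was 17.

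Other cytokine receptors moved in both directions. Of 26 tested, 2 were higher and 2 lower than in NHD13: Il4ra, the IL-4 receptor alpha chain, rose by 1.68 on the log2 scale and Ifngr2, a chain of the interferon gamma receptor, by 1.19, while Il18r1 fell by 2.19 and Il11ra1 fell by 1.86. Against control, 6 were higher and 3 lower, and the largest changes were a rise of 6.27 in Lifr and of 6.18 in Il13ra1 while Il1r1 fell by 2.81, Il11ra1 fell by 2.57 and Il27ra fell by 1.40, the last lost without control replicate 1 or 3 or NHD13/MSI2 replicate 1 or 2 (edgeR adjusted p up to 0.0207). Lifr, the receptor chain for leukaemia inhibitory factor, was at 1.80 CPM or less in the controls, 8.69 and 3.21 CPM in NHD13, and 28.9, 31.8, 76.4 and 248 CPM in the libraries labelled NHD13/MSI2, the last being replicate 4, and its call from control was lost without any 1 control (edgeR adjusted p up to 0.0153). NHD13 over control had Il18r1 higher at 2.46 and Il1r1 lower at −4.27, both lost when either NHD13 library was left out (edgeR adjusted p of 0.0128 and 0.0109 for Il1r1), and Il18r1 also without any 1 control or NHD13/MSI2 replicate 1 (up to 0.0388). Epor, the erythropoietin receptor, had a log2 change of −3.64 from NHD13 (edgeR adjusted p = 0.0940). Erythroid markers summed to 2478 to 2859 CPM in control, 2376 and 512 CPM in NHD13 and 173 to 297 CPM in NHD13/MSI2, and their part in the level of Epor was not tested.

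Among 15 other receptor tyrosine kinases, 0 were called higher by edgeR or DESeq2 (1 at an unadjusted p under 0.05) and 3 lower in the libraries labelled NHD13/MSI2 than in NHD13: Tek, the angiopoietin receptor found on stem cells, at −6.63, its relative Tie1 at −3.57, and Pdgfrb at −3.37. Tek had 3, 1, 0 and 23 counts in NHD13/MSI2, the last in replicate 4, so its fitted value depends on the prior count: it was −9.04 without replicate 4 and −5.80 without NHD13 replicate 1. The same 3 were lower than in control, where Mst1r, the receptor for macrophage stimulating protein, was higher at 6.00. Mst1r was also higher in NHD13 than in control, at 4.75, a call lost without control replicate 1 or 3, NHD13 replicate 2, or NHD13/MSI2 replicate 1, 2 or 3 (edgeR adjusted p up to 0.0365). It was at 0.240 CPM or less in the controls, 3.17 and 5.38 CPM in NHD13, and 10.6, 8.28, 9.86 and 11.9 CPM in NHD13/MSI2. Of 13 ligands, 5 were expressed enough to test. Kitl, Flt3l and Csf1, the ligands of Kit, Flt3 and Csf1r, had edgeR adjusted p-values of 0.676, 0.142 and 0.467 from NHD13 and 0.574, 0.386 and 0.834 from control. Il7, the ligand of Il7r, was at 9.16, 5.88 and 10.3 CPM in the controls and 3.31 and 2.52 CPM in NHD13, and had at most 1 count in any library labelled NHD13/MSI2. Against a floor of 3 counts in a library Il7 was at least 15.0-fold lower than in NHD13 and at least 43.3-fold lower than in control. Tslp, the other ligand received through Il7r, was lower than in control at −4.48, and was at 4.66, 5.84 and 4.88 CPM in the controls, 5.11 and 1.73 CPM in NHD13 and 0.714 CPM or less in NHD13/MSI2; this call was lost without any 1 control or NHD13/MSI2 replicate 1, 2 or 3 (edgeR adjusted p up to 0.0321).

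Downstream of the receptors, the genes called by edgeR were 3 kinases, against control. Of 25 kinases and adaptors, 0 were called by edgeR between the libraries labelled NHD13/MSI2 and NHD13, where 423 of the 13355 genes tested were called in either direction (3.17%); 11 had an unadjusted p under 0.05, and DESeq2 called 5, all of them higher. Against control, Tec at 1.45, Jak1 at 1.21 and Lyn at 0.92 were higher in the libraries labelled NHD13/MSI2, beside 4.49% of all genes called higher and 11% in either direction, Jak1 being lost without any 1 control or NHD13/MSI2 replicate 1, 2 or 3 (edgeR adjusted p up to 0.0346), and 0 were lower (2 at an unadjusted p under 0.05, and 1 by DESeq2). Jak1 is the kinase that works with Il6st, and Lyn acts downstream of Csf3r and the beta chains. Of 7 STATs, 25 negative regulators and 16 STAT targets, 0 were called in any of the 3 comparisons by edgeR. Of these 48 genes, DESeq2 called 5 between NHD13/MSI2 and NHD13, 7 between NHD13/MSI2 and control and 1 between NHD13 and control, and 13, 20 and 5 had an unadjusted p under 0.05 in edgeR. Among all 13355 genes, unadjusted edgeR p-values of 0.0495, 0.0373 and 0.0477 ranked 2892, 4009 and 1761 in the same 3 comparisons. These counts are therefore not read as a result about the lists.

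**Figure D4:**
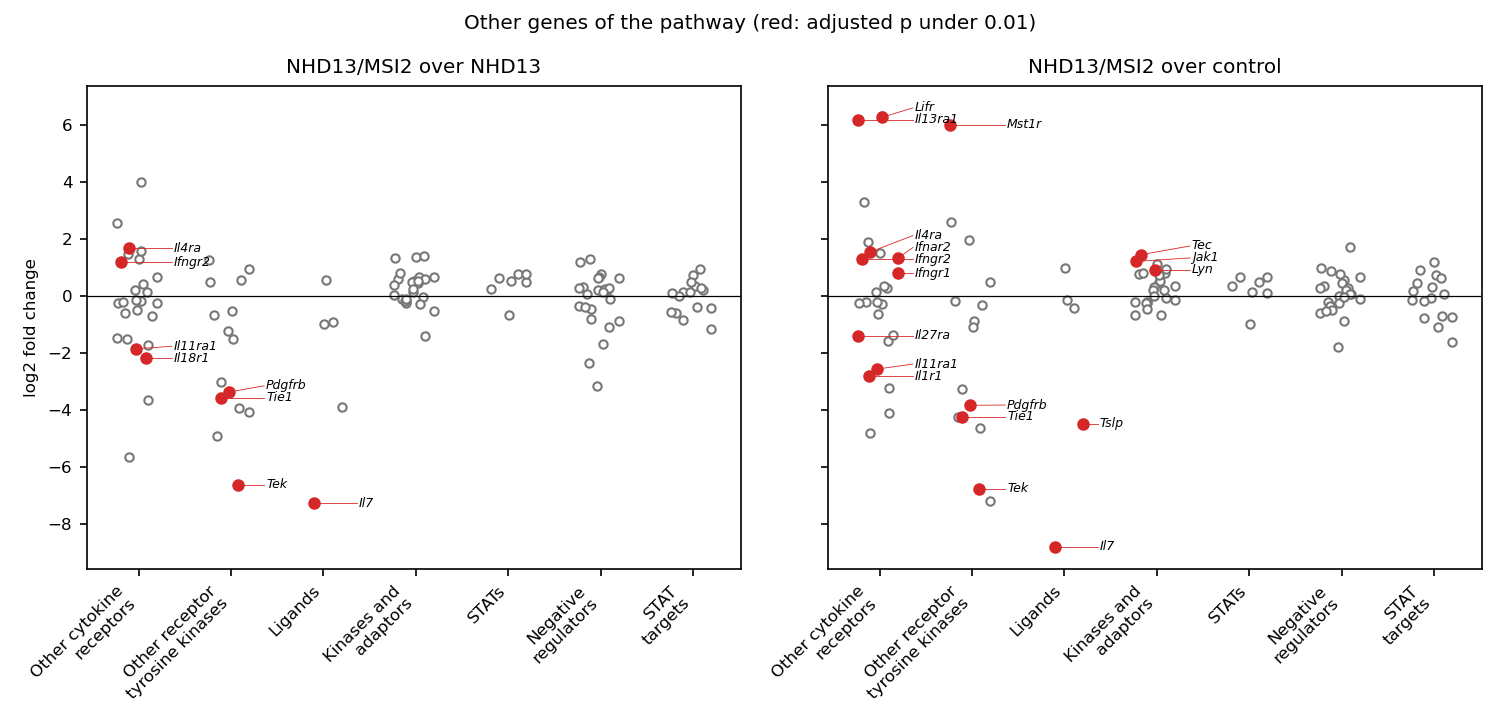
Log2 fold change of every tested gene in the 7 pathway lists, 1 column of points per list, with NHD13/MSI2 over NHD13 on the left and NHD13/MSI2 over control on the right; called genes are red and named. In both panels called genes lie among the other receptors and the ligands, such as Tek at −6.63 and Il4ra at 1.68 on the left, and on the right also among the kinases; the fitted values of Tek and Il7 depend on the prior count, because the libraries labelled NHD13/MSI2 held few or no counts of them.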

How the data were processed

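Libraries of sorted LSK cells were sequenced as bulk RNA. The authors deposited 1 table of raw counts per gene, whole numbers that are not normalized; the submitters' processing notes name STAR, HTSeq, DESeq and mm9, with no versions. HTSeq drops reads that fall in overlapping or duplicated genes, so near-identical genes can be undercounted, and the strand setting is not given in the sources used here. Spreadsheet dates had replaced the names of 11 March and Marc rows, and gene names after them stood 2 rows too high: moving 11942 names down by 2 rows gave the highest median CPM over 27 abundant genes (860, against 63.6 as deposited). The 10 receptors lie before these rows. The 13 rows that could not be named were left out (0.0253 to 0.0323% of a library), as were 2 blank rows, and 0 value columns were unmapped. Counts were filtered (filterByExpr), TMM scaled and tested in edgeR 4.0.16 (R 4.3.3, limma 3.58.1) with the quasi-likelihood test over all 9 libraries, Benjamini-Hochberg adjusted over 13355 genes and called at an adjusted p under 0.01. Exon lengths were from GENCODE M21. On simulated data for NHD13/MSI2 over NHD13, with 13066 genes passing the filter, edgeR recovered 6% of genes changed by 1 on the log2 scale and 56% of those changed by 2, and DESeq2 1.42.0 recovered 23% and 87% over 13355 genes. In the same simulation edgeR called 2 genes that had not been changed and DESeq2 called 15, so DESeq2 found more changes with more false calls. Depth, 19242153 to 23013493 counts per library, puts 3 counts at 0.130 to 0.156 CPM, which covers counting error only. Alternatives were DESeq2, other scalings, no filter, 2 groups only, a replicate block, names as deposited, a threshold of 0.05, both beta chains summed, and each library left out. Receptors, lists and tests were chosen with earlier results of these data known. All 10 receptors, their partner chains and Epor were named, and from each pathway list up to 3 called genes in each direction with the largest change and a mean of at least 50 counts; Hmgxb3, Tcf7, Cd2, Ccr9 and Cxcr2 were named after their values were seen. A gene of the pathway lists is not reported here, and was left out of their counts.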

Additional observations from a re-analysis of the deposited data

Results flagged for a closer look

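Among 35 levels, sums and ratios examined in the 4 libraries labelled NHD13/MSI2, 1 library lay far from the others of its group by Dixon's criterion: Msi2 was at 241 CPM in NHD13/MSI2 replicate 4, and the nearest of the other libraries was at 88.0 CPM. Chance alone gives about 1 such value in 20 groups. None of the 10 receptors met the criterion in this group, and the other groups were too small for it.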

How the results depend on the processing

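Of 486 refitted receptor changes, 448 kept their direction and their side of the threshold, 25 lost a call, 6 gained one and 7 reversed. Called receptors numbered 2 for NHD13/MSI2 over NHD13, 5 for NHD13/MSI2 over control and 1 for NHD13 over control; with DESeq2 the first and last became 4 and 2, and likewise 4 and 2 at an adjusted p under 0.05. For NHD13/MSI2 over NHD13 the count was 1 with library totals in place of TMM and 0 in the fit of the 2 groups alone, where 30 genes in all were called. Called pathway genes numbered 8, 18 and 3 in the same order, and became 26, 37 and 7 with DESeq2 and 23, 41 and 7 at an adjusted p under 0.05; NHD13/MSI2 over NHD13 gave 0 with 2 groups alone and 5 with names as deposited, which gave other genes' counts to names after the March rows (Mst1r −0.0492 and Tek 0.45 on the log2 scale from control). With 1 library left out, receptor counts ran from 0 to 2, 3 to 5 and 1 to 2, and pathway counts from 1 to 17, 12 to 27 and 0 to 4. NHD13/MSI2 over NHD13 gave 0 receptors without control replicate 2 or NHD13 replicate 1, and NHD13/MSI2 over control gave 3 without any 1 control. Over these fits, reversed log2 changes spanned −0.717 to 0.0537 for Kit, −1.52 to 0.24 for Flt3 and −3.34 to 1.42 for Il7r from NHD13, and −0.0534 to 0.42 for Csf2ra, −0.0934 to 1.01 for Il3ra and −0.73 to 4.03 for Il7r in NHD13 over control; they turned without NHD13 replicate 1 (Kit, Il7r, Csf2ra at −0.0047), NHD13 replicate 2 (Flt3, Il3ra) or control replicate 1 (Csf2ra). The cause of these changes was not tested, beyond the smaller number of libraries. Replicate numbers are shared between groups, and deviations of same-numbered libraries from their group means correlated at −0.07 to 0.19. With 2 NHD13 libraries these deviations mirror each other (control replicate 1 gave 0.194 and −0.194). The check therefore cannot decide whether the numbers mark a pairing. With the replicate block 1 receptor was called for NHD13/MSI2 over NHD13 and 1 pathway gene for NHD13 over control. Depth left at least 41 counts of each receptor in every library, while 119 of the 135 pathway genes passed the filter on low counts.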
